A study of Mus musculus with 16 samples.

Results

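Proteins destined for secretion or for membranes enter the endoplasmic reticulum (ER) through a translocation apparatus and leave it in coated vesicles, and the mRNAs that encode this machinery were followed in a mouse cell line of macrophage character, RAW264.7, after exposure to lipopolysaccharide (LPS), a bacterial cell wall component. Members were chosen by gene symbol: signal recognition particle and receptor (Srp), translocon (Sec61, Sec62, Sec63), translocon-associated protein complex (TRAP, Ssr), signal peptidase (Sec11, Spcs), COPII coat (Sar1, Sec13, Sec16, Sec23, Sec24, Sec31), COPI coat (Cop), p24 cargo receptors (Tmed) and Sec22 SNAREs. Among the 13832 genes measured, 57 matched. A minimum of 10 counts in 4 or more of 8 input libraries and in 4 or more of 8 footprint libraries was met by 52 of them and by 9529 genes in all. The 52 comprised 22 translocation genes (7 of signal recognition particle and receptor, 6 of the translocon, 4 of TRAP, 5 of signal peptidase), 12 COPII, 7 COPI, 9 p24 and 2 Sec22 genes. The other 5 stayed below the filter: Sec16b, Sec22c, Sec31b, Srprb and Tmed6 held at most 26 counts in any library. Srprb, the other receptor subunit, has 0% of coding 29-mers of its own (shared with Gm20425), so its low counts may not give its level.

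The signal recognition particle binds a signal sequence as it leaves the ribosome and hands the ribosome to its receptor at the ER membrane, where the chain is threaded through the Sec61 channel, with TRAP beside it, and signal peptidase removes the signal. COPII, built from the GTPase Sar1, the inner layer Sec23 and Sec24 and the outer layer Sec13 and Sec31, carries cargo from the ER towards the Golgi. COPI, a heptameric coat in the cell, carries cargo and escaped ER proteins back. Activated macrophages secrete cytokines and other proteins through this route.

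Untreated cells and cells given 100 ng/ml LPS for 15, 30, 45, 60, 75 and 90 min or 16 h each gave 1 library of cytoplasmic RNA (input) and 1 of ribosome footprints, both from the same lysate, so 16 libraries stood in 16 groups of 1. The untreated cells were sampled at 0 min, so LPS and time in culture or handling cannot be told apart, and no ratio of single libraries has a replicate check. Counts in single libraries are printed unscaled. Every library held 6702930 to 6702932 counts, and the original depth is unknown. All 8 macrophage markers passed the filter, with summed counts of 15375 to 16816 in input, against 84 to 339 for osteoclast, 0 to 43 for fibroblast, 0 to 8 for lymphocyte and 0 to 1 for epithelium markers. Changes are given on the log2 scale relative to the typical gene, with the standard error (SE) of a smooth curve in time through the libraries, and adjusted p-values are those of the quasi-likelihood test in edgeR, adjusted over the 9529 genes by Benjamini and Hochberg's method (threshold 0.05).

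At 16 h most of these mRNAs were more abundant in cytoplasmic RNA. In input 35 of the 52 rose and 0 fell (also 0 by DESeq2, and 0 with an unadjusted p under 0.05 by edgeR), while 28.3% of all tested genes rose and 27% fell. The median change was 0.44, against 0.01 over all tested genes. By group, 17 of 22 translocation genes rose (median 0.47), 7 of 12 COPII genes (0.29), 5 of 7 COPI genes (0.41), 5 of 9 p24 genes (0.49) and 1 of 2 Sec22 genes. In footprints 28 rose and 0 fell, where 26% of all tested genes rose and 24.6% fell, again with 0 falls by DESeq2 and at an unadjusted p under 0.05. The footprint median was 0.37, against 0.00 over all tested genes, and 16 of 22 translocation, 4 of 12 COPII, 4 of 7 COPI, 4 of 9 p24 and 0 of 2 Sec22 genes rose. Of the genes that rose, 25 did so in both materials. Whether the groups differed from each other was not tested. Of the osteoclast markers 2 passed the filter; Dcstamp rose by 1.92 in input and 2.33 in footprints at 16 h, and Acp5 stood at 0.69 and -0.25 and did not pass. Of the 8 macrophage markers 4 rose and 2 fell in input. The part of these markers in the members' rise was not tested. Summed over the 22 translocation genes, counts were 17487 in untreated input, 16655 to 17442 from 15 to 90 min and 24110 at 16 h. In footprints the unscaled sums were 24349, 20813 to 22740 and 32716. After scaling by library (CPM), the footprint sums were 3303 untreated and 3071 to 3216 from 15 to 45 min. They were 3324 to 3471 from 60 to 90 min and 4808 at 16 h. Scaled input sums were 2496 untreated and 2407 to 2499 from 15 to 45 min. They were 2589 to 2649 from 60 to 90 min and 3855 at 16 h. The scaled sums from 60 to 90 min thus lay above untreated in both materials.

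**Figure D1:**
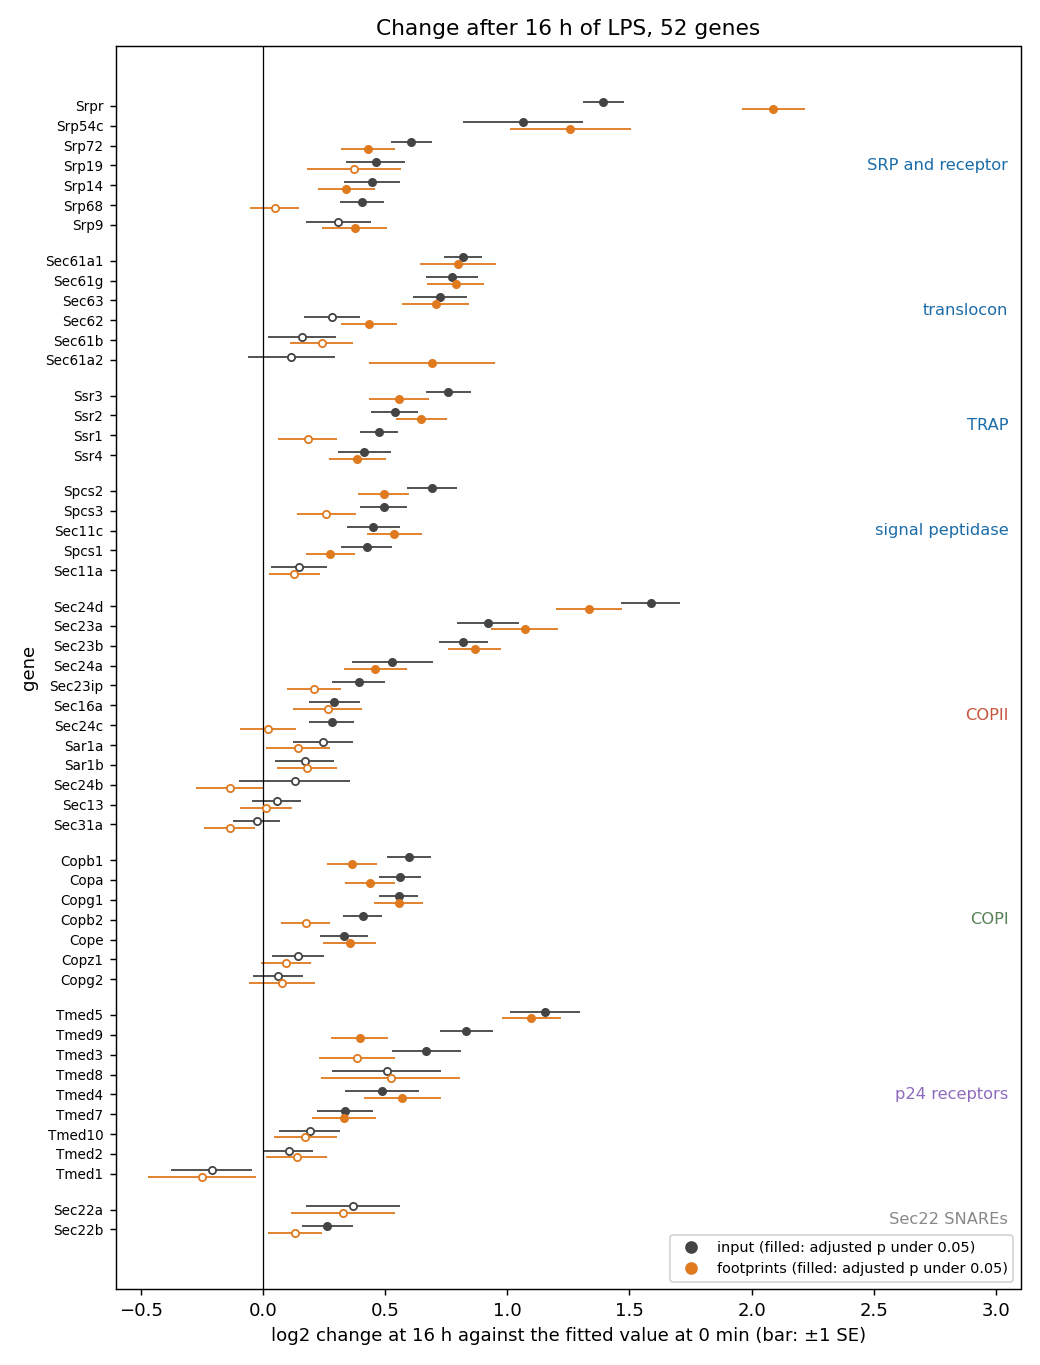
Log2 change at 16 h against the fitted value at 0 min (horizontal axis) for the 52 genes, grouped by complex, in input (dark grey) and footprints (orange), with bars of 1 SE; filled points passed the test. Srpr and Sec24d lie farthest to the right, and Sec31a, Sec13, Copg2 and Copz1 lie near 0 in both materials.

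Srpr, which encodes the receptor subunit that docks the signal recognition particle, showed the largest change in footprints. The gene lies on the plus strand at chr9:35200175-35247973 (GRCm38, the assembly also called mm10). Its input counts were 1334 untreated, 1271, 1410, 1363, 1368, 1509 and 1506 at 15 to 90 min, and 3076 at 16 h. Its footprint counts were 879 untreated, 823, 834, 1111, 1096, 1148 and 1114 at 15 to 90 min, and 3233 at 16 h. In both materials the 16 h library was the highest, and in footprints the libraries from 45 min on all lay above the 3 earlier ones. The fitted rise at 16 h was 1.39 ± 0.085 in input (SE, adjusted p = 8.3e-09) and 2.09 ± 0.13 in footprints (adjusted p = 1.6e-09). After scaling, the 16 h library stood at 2.58-fold of untreated in input (95% counting interval 2.42 to 2.76) and 3.98-fold in footprints (3.70 to 4.30). Of the 29-mers of its coding sequence 50.3% were found in no other gene's transcripts. The rest were shared with Gm6733 and Gm7593, so its counts may include reads of those genes.

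The other subunits of the particle moved less. Srp72 rose in input by 0.61 ± 0.083 (adjusted p = 2.5e-05), and in footprints by 0.43 ± 0.11 (adjusted p = 0.0039). Srp14 rose in both materials (0.45 and 0.34). Srp19 and Srp68 rose in input (0.46 and 0.41) and did not pass in footprints (0.37 and 0.05), and Srp9 rose in footprints (0.38) and did not pass in input (0.31). Srp54c rose by 1.06 ± 0.25 in input and 1.26 ± 0.25 in footprints (adjusted p = 0.0021 and 0.00047), on 70 untreated and 117 late input counts and 73 and 177 footprint counts. Only 9.16% of its coding 29-mers were its own, the others being shared with Srp54a and Srp54b. Neither of those symbols has an entry among the genes measured, and the value cannot be assigned to Srp54c. The same holds for Srp9, with 2.17% of its own. The footprint calls of Srp14 and Srp9 were lost with total counts, with DESeq2 and without the 15 min library, and that of Srp9 also without the untreated one (adjusted p from 0.051 to 0.11).

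In the channel itself, Sec61a1, the pore-forming subunit (minus strand, chr6:88503579-88518905), had 1587 untreated input counts, 1483 to 1739 from 15 to 90 min and 2501 at 16 h. Its footprint counts were 1661, 1364 to 1818 and 2677. The 16 h library was the highest in both, at 1.77-fold of untreated in input (95% counting interval 1.66 to 1.88) and 1.75-fold in footprints (1.64 to 1.86). The fitted rises were 0.82 ± 0.078 (adjusted p = 7.6e-07) and 0.80 ± 0.16 (adjusted p = 0.00083). Its paralogue Sec61a2 was a minor form, with a mean of 6.65 scaled footprint CPM (library-scaled counts as edgeR gives them) per kilobase of coding sequence against 185 for Sec61a1. Sec61a2 stood at 0.12 ± 0.18 in input (adjusted p = 0.6) and rose by 0.69 ± 0.26 in footprints (adjusted p = 0.035), on 68 untreated and 100 late counts. That call was lost with total counts, DESeq2 or the square root of time, and without the 15 min library (adjusted p from 0.052 to 0.19).

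Of the small subunits of the channel, 1 passed. Sec61g, the gamma subunit, rose in input by 0.77 ± 0.11 (adjusted p = 3e-05), and in footprints by 0.79 ± 0.12 (adjusted p = 3.4e-05), with 1901 untreated and 3135 late footprint counts. Sec61b, the beta subunit, stood at 0.16 ± 0.14 and 0.24 ± 0.13 (adjusted p = 0.35 and 0.13). Both share most of their coding 29-mers with other genes, with 15.8% and 12.3% of their own. Sec63, which couples the channel to the lumenal chaperone BiP, rose in both materials (0.73 and 0.71), and its partner Sec62 rose in footprints (0.43) and stood at 0.28 in input (adjusted p = 0.05, above the threshold before rounding).

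All 4 TRAP genes rose in input and 3 of them in footprints. Ssr3 rose in input by 0.76 ± 0.091 (adjusted p = 7.4e-06), and in footprints by 0.56 ± 0.12 (adjusted p = 0.0013), Ssr2 by 0.54 and 0.65, and Ssr4 by 0.42 and 0.39. Total counts ended both calls of Ssr4, and its footprint call was also lost with DESeq2 and without the untreated library (adjusted p from 0.051 to 0.097). Ssr1, the translocation gene with the most footprints, held 4383 untreated footprint counts, 2913 to 3506 from 15 to 90 min and 4401 at 16 h. It rose by 0.48 ± 0.079 in input (adjusted p = 0.00015) and stood at 0.18 ± 0.12 in footprints (adjusted p = 0.23). Of the signal peptidase genes, Spcs2, Spcs1 and the catalytic subunit gene Sec11c rose in both materials, by 0.69, 0.43 and 0.45 in input and 0.49, 0.28 and 0.54 in footprints. The footprint call of Spcs1 was lost without the 15 or 45 min library, without the filter, and with total counts or DESeq2 (adjusted p from 0.051 to 0.16). Of the coding 29-mers of Spcs2 67.3% were its own and the rest were shared with Spcs2-ps, so its counts may include reads of that gene. Spcs3 rose in input (0.49) and stood at 0.26 in footprints. The second catalytic gene, Sec11a, stood at 0.15 ± 0.12 and 0.13 ± 0.11 (adjusted p = 0.29 and 0.33). Sec11c took 43.3% of the footprint counts of the pair in untreated cells (95% Wilson interval 40.8 to 45.9). Its footprint share was 39.5% to 42.4% from 15 to 90 min and 50.1% (47.7 to 52.4) at 16 h. In input Sec11c took the larger part at every time. Its input share was 65.7% untreated (63.3 to 68.1), 61.9% to 67.6% from 15 to 90 min and 70.9% (68.7 to 73.0) at 16 h.

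Within COPII, both Sec23 genes, whose products form the inner coat and activate the Sar1 GTPase, rose in both materials: Sec23a by 0.92 ± 0.13 and 1.07 ± 0.14 (adjusted p = 2.8e-05 and 7.3e-06), and Sec23b by 0.82 ± 0.1 and 0.87 ± 0.11 (adjusted p = 1e-05 and 5.6e-06). Sec23a had 260 untreated footprint counts, 268 to 302 from 15 to 90 min and 526 at 16 h, and Sec23b 1142, 1137 to 1273 and 1962. Neither gene of the outer layer passed. Sec31a had 1155 untreated input counts, 1231 to 1348 from 15 to 90 min and 1051 at 16 h, and stood at -0.03 ± 0.096 in input and -0.13 ± 0.1 in footprints (adjusted p = 0.84 and 0.3). Sec13 stood at 0.06 ± 0.1 and 0.01 ± 0.11 (adjusted p = 0.66 and 0.93). For Sec13, the COPII gene with the most footprints, the 16 h library stood at 1.00-fold of untreated in footprints (95% counting interval 0.933 to 1.07). Both Sar1 genes were short of the threshold: Sar1a stood at 0.25 and 0.14 (adjusted p = 0.11 and 0.38) and Sar1b at 0.17 and 0.18 (0.25 and 0.23). Sec16a, a scaffold of ER exit sites, and Sec23ip, a partner of Sec23, rose in input (0.29 ± 0.11, adjusted p = 0.03, and 0.39 ± 0.11, adjusted p = 0.0073) and stood at 0.27 and 0.21 in footprints (0.13 and 0.12). The input call of Sec23ip was lost with total counts (adjusted p = 0.095). The input call of Sec16a was lost with total counts, DESeq2 and without the untreated library (adjusted p from 0.096 to 0.37). Both stood about as high or higher in input by 90 min: Sec16a at 163 CPM against 148 at 16 h, and Sec23ip at 129 against 131.

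The 4 Sec24 genes, whose products select cargo, had unlike values, whose differences were not tested. Sec24d (plus strand, chr3:123267455-123365641) had 227 untreated input counts, 268, 280, 252, 255, 241 and 213 at 15 to 90 min, and 630 at 16 h. Its footprint counts were 299 untreated, 334, 333, 310, 260, 267 and 231 at 15 to 90 min, and 729 at 16 h. In these unscaled counts the 16 h library was the highest and the 90 min library the lowest in both materials. After scaling, the lowest input library was the untreated one, at 32.4 CPM against 33.1 at 90 min. The fitted rise in input was 1.59 ± 0.12 (adjusted p = 8.1e-08), and that in footprints 1.34 ± 0.13 (adjusted p = 4.8e-07). Sec24a rose by 0.53 ± 0.17 and 0.46 ± 0.13 (adjusted p = 0.015 and 0.0075), and both calls were lost without the untreated library (adjusted p = 0.097 and 0.074), the input call also with total counts (0.085). Sec24c rose in input (0.28 ± 0.091, adjusted p = 0.017), a call lost with total counts and DESeq2, and stood at 0.02 ± 0.11 in footprints (adjusted p = 0.89). Sec24b stood at 0.13 ± 0.23 and -0.13 ± 0.14 (adjusted p = 0.66 and 0.44). Sec24d took 14.7% of the footprint counts of the 4 genes in untreated cells (95% Wilson interval 13.2 to 16.3), 12.2% to 15.8% from 15 to 90 min and 29.5% (27.7 to 31.3) at 16 h. In scaled footprints per kilobase of coding sequence, Sec24d had the lowest level of the 4 in untreated cells, at 13.1 CPM against 13.9 for Sec24a, 20.4 for Sec24b and 34.6 for Sec24c. At 16 h it stood at 34.6, beside 36.2 for Sec24c, 19.8 for Sec24a and 19.3 for Sec24b.

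**Figure D2:**
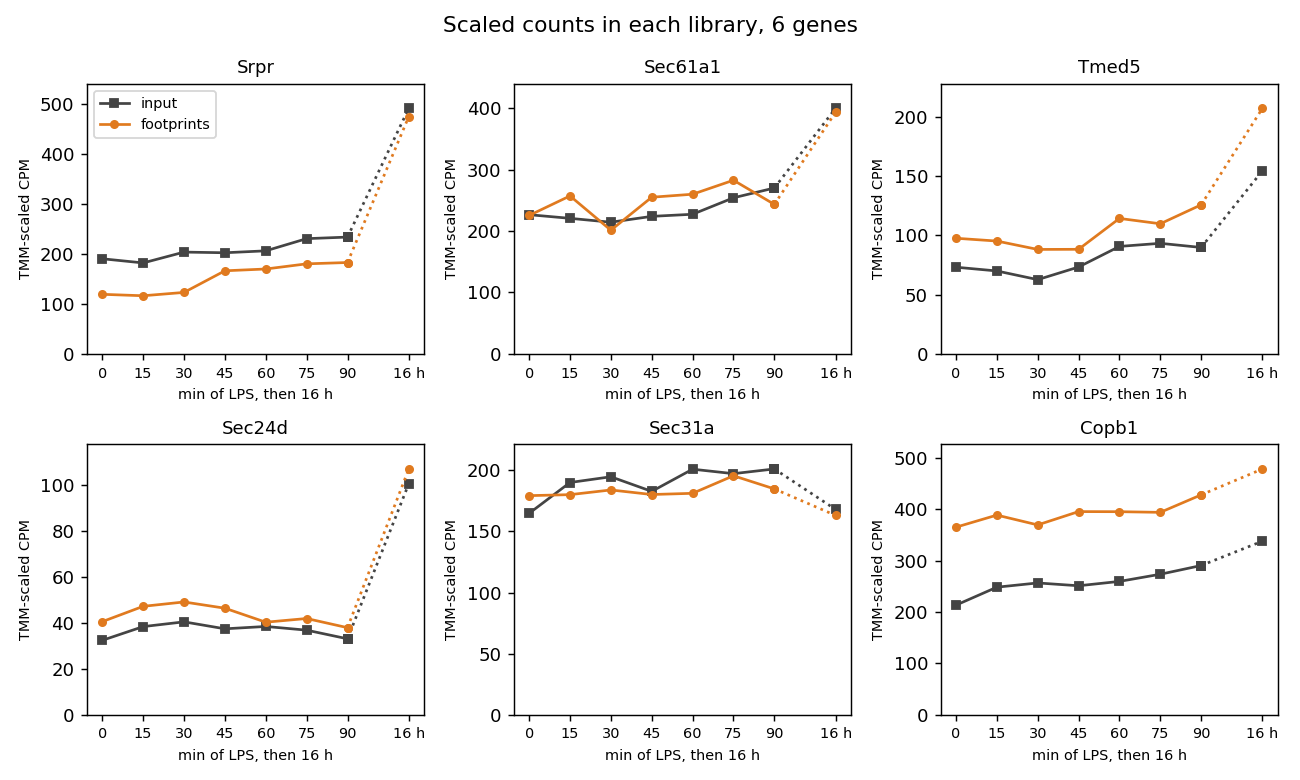
Scaled CPM (vertical axis, from 0) in each of the 16 libraries for 6 genes, with input in dark grey squares and footprints in orange circles; the horizontal axis gives minutes of LPS, and the dotted line leads to 16 h, which is not to scale. Srpr, Sec61a1, Tmed5 and Sec24d are highest at 16 h in both materials, and Sec31a is not.

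Of the 7 COPI genes, 5 rose in input and 4 in footprints. These 7 include both gamma paralogues and leave out the coat subunit genes Arcn1 (delta) and Copz2 (a zeta paralogue), which the choice by symbol did not cover. Copb1, the COPI gene with the most footprints, had 1495 untreated input counts, 1691 to 1872 from 15 to 90 min and 2115 at 16 h, and 2693, 2506 to 2750 and 3258 footprint counts. Every later input library lay above the untreated one. It rose in input by 0.60 ± 0.09 (adjusted p = 6.2e-05), and in footprints by 0.36 ± 0.1 (adjusted p = 0.0073). Copa rose by 0.56 and 0.44, Copg1 by 0.56 and 0.56 and Cope by 0.33 and 0.36, while the calls of Cope were lost with total counts and with DESeq2. Copb2 rose in input (0.41) and stood at 0.18 in footprints (adjusted p = 0.16). Copz1, which encodes a zeta subunit, stood at 0.15 ± 0.11 and 0.10 ± 0.1 (adjusted p = 0.26 and 0.46). The gamma subunit paralogues differed in value, with Copg2 at 0.06 ± 0.1 in input and 0.08 ± 0.14 in footprints (adjusted p = 0.63 and 0.65). Copg2 took 31.2% of the footprint counts of the pair in untreated cells (95% Wilson interval 29.3 to 33.2). Its footprint share was 28.5% to 32.7% from 15 to 75 min, 27.1% (25.2 to 29.2) at 90 min and 24.4% (22.9 to 26.1) at 16 h. In input the share was 36.5% untreated, 32.6% at 90 min and 28.9% at 16 h.

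Of the p24 receptors, which shuttle between ER and Golgi with cargo, Tmed5 (minus strand, chr5:108106366-108132620) changed most. Its input counts were 513 untreated, 489, 434, 494, 602, 611 and 579 at 15 to 90 min, and 968 at 16 h. Its footprint counts were 720 untreated, 674, 598, 590, 738, 700 and 767 at 15 to 90 min, and 1412 at 16 h. In both materials the 16 h library was the highest. The lowest count was at 30 min in input and at 45 min in footprints. After scaling, the footprint libraries at 30 and 45 min were close, at 88.2 and 88.3 CPM. It rose in input by 1.15 ± 0.14 (adjusted p = 1.9e-05), and in footprints by 1.10 ± 0.12 (adjusted p = 1.4e-06). Tmed9, Tmed4 and Tmed7 also rose in both materials (0.83, 0.49 and 0.34 in input, 0.40, 0.57 and 0.33 in footprints), and Tmed3 in input (0.67). The footprint call of Tmed7 was lost under 10 alternatives, the 45, 60, 75 and 90 min libraries left out among them (adjusted p from 0.052 to 0.16), and the input calls of Tmed7 and Tmed4 with total counts and DESeq2. Tmed10, with 1772 untreated and 1764 late footprint counts, stood at 0.19 ± 0.12 and 0.17 ± 0.13 (adjusted p = 0.21 and 0.28). Tmed2 stood at 0.11 and 0.14, Tmed8 at 0.51 and 0.52 and Tmed1 at -0.21 and -0.25, none of them past the threshold. Of the SNAREs, Sec22b rose in input by 0.26 ± 0.1 (adjusted p = 0.043) and stood at 0.13 ± 0.11 in footprints (adjusted p = 0.34), and Sec22a stood at 0.37 ± 0.19 and 0.33 ± 0.21 (0.12 and 0.21). The input call of Sec22b did not hold without the 0, 15, 45, 60, 75 or 90 min library, with total counts, without the filter and with DESeq2 (adjusted p from 0.053 to 0.42).

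Within the first 90 min the changes were smaller and reached fewer members. In input 12 of the 52 rose and 0 fell, while 15.2% of all tested genes rose and 11.8% fell. The members with an unadjusted p under 0.05 were 18 up and 2 down, and DESeq2 called 6 up and 0 down. The 12 comprised 4 translocation, 4 COPII, 2 COPI and 2 p24 genes. Early sizes are the fitted curve's farthest distance from its value at 0 min. Sec61a1 rose by 0.27 ± 0.068 (adjusted p = 0.0068), Sec23b by 0.43 ± 0.089 (0.0076), Sec16a by 0.43 ± 0.09 (0.0087), Srpr by 0.34 ± 0.075 (0.01) and Copb1 by 0.35 ± 0.077 (0.012). The other 7 were Sec23ip, Tmed9, Tmed5, Srp72, Srp68, Sec24a and Copg1, with excursions from 0.21 to 0.52. With scaling by total counts the split became 2 up and 2 down. Without the 90 min library 3 members were called, without the 75 min library 4, without the 15 min library 6 and without the untreated library 7. Sec23b was the 1 member of the 12 called under each alternative.

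In footprints 6 of the 52 members (11.5%) rose over 0 to 90 min and 0 fell, where 12.7% of all tested genes rose and 9.12% fell. The share of members that rose is near that over all genes. With scaling by total counts the split turned to 1 up and 11 down. DESeq2 called 5 up and 0 down, and 9 members rose and 5 fell at an unadjusted p under 0.05. The rises were Srpr (0.76 ± 0.11, adjusted p = 0.00049), Sec24a (0.58 ± 0.11, 0.0037), Sec62 (0.41 ± 0.1, 0.0056), Tmed5 (0.40 ± 0.11, 0.012), Sec23b (0.39 ± 0.094, 0.018) and Srp72 (0.32 ± 0.095, 0.031). With total counts, which move the median of all genes by -0.32 in this comparison against -0.07 in the main scaling, Sec62, Tmed5 and Srp72 turned to -0.18, -0.17 and -0.12. Without the 90 min library 2 members were called, and Sec62, Tmed5, Sec23b and Srp72 lost their calls. Srpr was the 1 member of the 6 called under each alternative. Sec23b, Sec24a, Srp72, Srpr and Tmed5 rose in both materials.

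The medians of the 3 groups are given side by side for each time. Relative to the untreated library, the median COPII gene in input stood at 0.15 at 15 min, 0.17 at 30 min, 0.14 at 45 min, 0.27 at 60 min, 0.23 at 75 min and 0.27 at 90 min. All 12 COPII genes lay above untreated at 45, 60 and 90 min. The median translocation gene stood at -0.01, -0.07, -0.02, 0.08, 0.08 and 0.05 at those times, and the median COPI gene at 0.08, 0.00, 0.03, 0.06, 0.12 and 0.20. From 90 min to 16 h the translocation median went from 0.05 to 0.46, the COPI median from 0.20 to 0.43 and the COPII median from 0.27 to 0.34. In footprints the values at 90 min were 0.10 for translocation, 0.13 for COPII and 0.10 for COPI, and at 16 h 0.44, 0.19 and 0.34. All these medians share the untreated library, and the differences between groups were not tested.

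**Figure D3:**
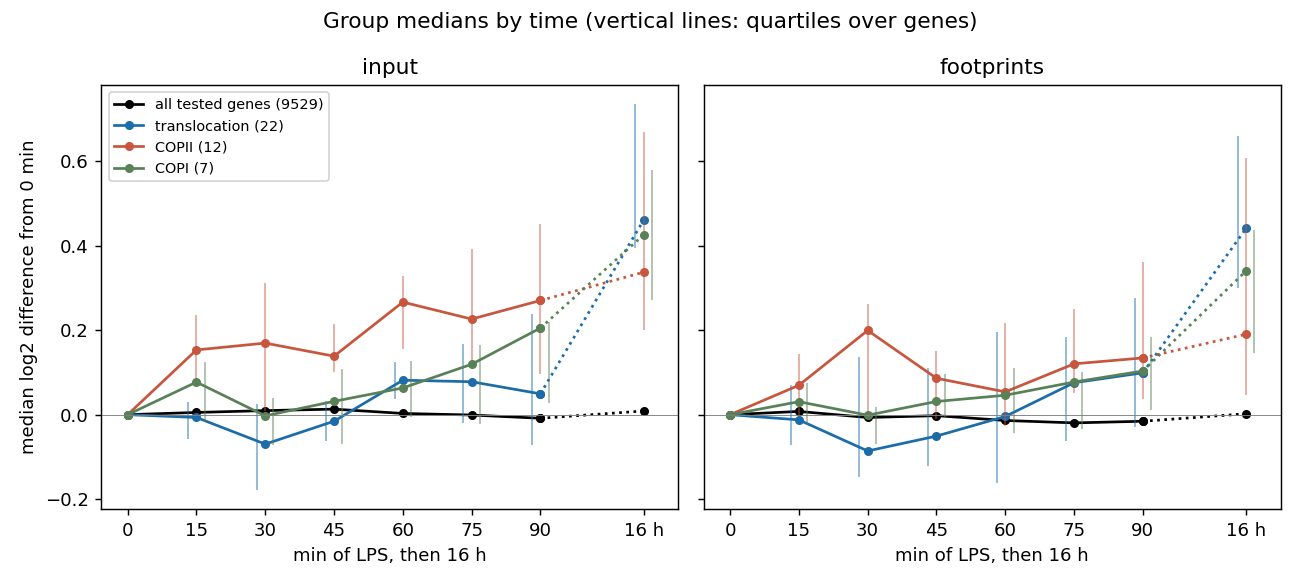
Median log2 difference from the untreated library (vertical axis) by time for 22 translocation, 12 COPII and 7 COPI genes and all 9529 tested genes, in input (left) and footprints (right); thin vertical lines span the quartiles over genes, and 16 h is not to scale. The translocation median lies near 0 until 90 min and at 0.46 in input at 16 h, and the COPII median lies at 0.14 or above from 15 min on in input.

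Footprints relative to input, the ribosome density, were compared to ask whether translation of these mRNAs changed beyond their abundance. Over 0 to 90 min density changed on 0 of the 52 (1.14% of all tested genes rose and 0.136% fell), and DESeq2 also called 0 at the adjusted threshold. By edgeR 2 were up and 2 down at an unadjusted p under 0.05. At 16 h density rose on 1 member, Srpr, and fell on 0 (0.378% of all tested genes rose and 0.126% fell), with 2 up and 1 down at an unadjusted p under 0.05. On the log2 scale the density of Srpr relative to the typical gene was -0.47, -0.44 and -0.50 at 0, 15 and 30 min, -0.06, -0.07, -0.15 and -0.16 at 45 to 90 min, and 0.23 at 16 h. The 3 earliest values were the lowest and the 16 h value the highest. The rise at 16 h was 0.78 ± 0.15 (adjusted p = 0.021). That call was lost without the untreated pair (0.61, adjusted p = 0.052), where 16 h was set against the fitted value at 15 min. It was also lost without the 15 min pair (0.76, 0.08) or the 60 min pair (0.76, 0.052). DESeq2 called 0 members (0.76 for Srpr, adjusted p = 0.11). Over 0 to 90 min Srpr stood at 0.42 ± 0.13 (adjusted p = 0.34), and it was called without the 30 min pair (0.44, adjusted p = 0.036). No other member passed at 16 h, where the values lay between -0.36 (Tmed9) and 0.65 (Sec61a2).

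The mean level of density over all 8 time points was high for most members. It lay above the typical gene for 42 of the 52 and below it for 8, where 43.6% of all tested genes lay above and 41.5% below, and the median was 0.44 against 0.02 over all tested genes. By group, 19 of 22 translocation, 10 of 12 COPII, 6 of 7 COPI, 6 of 9 p24 and 1 of 2 Sec22 genes lay above. With scaling by total counts the split became 36 above and 11 below. Copa turned from above to below (-0.14, adjusted p = 0.0033), and Sec31a and Tmed3 changed sign and did not pass (-0.049 and -0.026, adjusted p = 0.35 and 0.72). Tmed10 (1.49 ± 0.052, adjusted p = 5.1e-17), Copz1 (1.20 ± 0.04, adjusted p = 2.6e-17) and Sec61g (1.15 ± 0.047, adjusted p = 6.6e-16) had the highest levels. Sec16a (-0.91 ± 0.052, adjusted p = 3e-13), Sec61a2 (-0.76 ± 0.11, adjusted p = 1.1e-06) and Tmed2 (-0.59 ± 0.046, adjusted p = 5.5e-11) had the lowest. The coding part made up 44.3%, 31.7% and 39.8% of the annotated transcript for the 3 highest, and 81.1%, 58.3% and 29.1% for the 3 lowest, and its part in the level was not tested. Tmed2 had 0% of coding 29-mers of its own and Tmed10 15.4%, so their counts may be shared with copies. Within signal peptidase the paralogues lay apart, with Sec11a at 0.92 and Sec11c at -0.43.

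**Figure D4:**
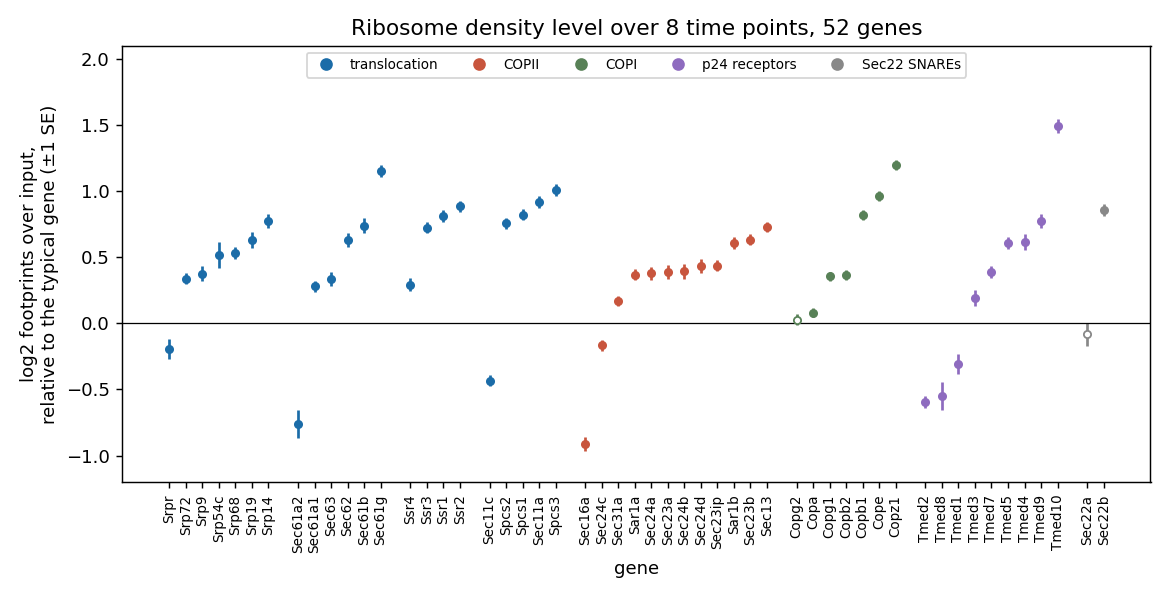
Log2 ratio of footprints to input relative to the typical gene (vertical axis), averaged over 8 time points, for the 52 genes in order within each complex; bars are 1 SE and filled points passed the test. Tmed10 is highest at 1.49 and Sec16a lowest at -0.91, and 42 genes lie above 0 beyond the threshold, or 36 with scaling by total counts.

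Subunits of 1 complex had unlike footprint levels per kilobase of coding sequence. In COPI the mean over the 8 footprint libraries was 442 CPM per kilobase for Copz1, 152 for Cope, 141 for Copb1, 124 for Copb2, 96.6 for Copa, 82.8 for Copg1 and 34.7 for Copg2. In TRAP it was 544 for Ssr1, 508 for Ssr2, 322 for Ssr3 and 225 for Ssr4. In COPII it ranged from 9.20 for Sec16a to 240 for Sec13, with 222 for Sar1a and 179 for Sar1b, 85.2 for Sec23b and 20.3 for Sec23a, and 49.1 for Sec31a. Sec61g, at 964, was the highest of all members, with the limit on shared sequence given above. Coding length differed too, from 531 bases for Copz1 to 3699 for Copa in COPI, with 7131 for Sec16a and 300 for Sec61g. Its part in these levels was not tested.

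Many genes of the secretory pathway carry promoter elements bound by the transcription factors of the unfolded protein response, which raises ER capacity, so the promoters of the members were searched. RefSeq promoters (GRCm38.p6, 250 bases before to 50 after the start) were matched for 45 of the 52. The ER stress response elements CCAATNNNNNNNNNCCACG and ATTGGNCCACG were found in 0 of the 45, and in 0.149% and 0.109% of tested genes. The element TGACGTGG was found in 4 (8.89%, against 1.07% of tested genes): Copb1, Copb2, Sec23a and Sec24d. The element GCCACGT was found in 14 (31.1%, against 5.01% of tested genes). Both strands were searched, and TGACGTGG overlaps GCCACGT on the opposite strand in ACGTGG. With TGACGTGG 4 of 4 members rose in input at 16 h and 3 of 4 in footprints, and without it 25 of 41 and 21 of 41. With GCCACGT 10 of 14 rose in input and 7 of 14 in footprints, and without it 19 of 31 and 17 of 31, with medians of 0.52 and 0.41 in input and 0.36 and 0.36 in footprints. A match describes letters in the window and is not a site shown to be bound. The stretches that follow are those of members that rose whose match lies before the start site and outside every annotated exon; they read along the gene's strand, with the element in capitals.
Ssr3, GCCACGT, chr3:65392718-65392764, minus strand: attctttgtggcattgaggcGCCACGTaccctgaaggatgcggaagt
Ssr1, GCCACGT, chr13:37994256-37994302, minus strand: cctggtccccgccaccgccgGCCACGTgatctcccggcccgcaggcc
Tmed3, GCCACGT on the opposite strand, chr9:89705218-89705264, minus strand: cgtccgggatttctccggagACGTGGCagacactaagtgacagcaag
Sec24c, GCCACGT on the opposite strand, chr14:20674226-20674272, plus strand: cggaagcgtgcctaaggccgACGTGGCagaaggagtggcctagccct
Sec63, GCCACGT, chr10:42761453-42761495, plus strand: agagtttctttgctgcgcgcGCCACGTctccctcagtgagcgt

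Other parts of the pathway were read at 16 h from lists chosen by function, beside 28.3% of all tested genes that rose and 27% that fell in input, and 26% and 24.6% in footprints. No list was tested against other genes. Of 15 coat regulators and partners, input showed 11 rises and 1 fall, and footprints 7 and 1. That list as chosen also named the COPI subunit genes Arcn1 and Copz2. Arfgap3, a GTPase-activating protein of Arf, rose by 1.20 ± 0.2 in input (adjusted p = 0.00015), and Preb, the Sar1 exchange factor, by 0.67 ± 0.17 (adjusted p = 0.0044), while Arfgap2 fell by 0.28 ± 0.11 (adjusted p = 0.045). Of 15 SNAREs and tethers between ER and Golgi, 11 rose in input and 8 in footprints, led in input by the tether Uso1 (1.26 ± 0.14, adjusted p = 1.2e-05). Of 12 cargo receptors, input showed 4 rises and 1 fall, and footprints 5 and 1, with Surf4 at 0.81 ± 0.098 (adjusted p = 8.3e-06). Of 14 oligosaccharyltransferase and Tram genes, input showed 4 rises and 3 falls, near the shares over all genes, and footprints 7 and 3. The catalytic subunit gene Stt3a rose by 0.68 ± 0.08 in input (adjusted p = 6.3e-06), and its counterpart Stt3b fell by 0.26 ± 0.078 (adjusted p = 0.013). Of genes for other routes of membrane insertion, 2 of 10 ER membrane complex genes fell in input and 3 in footprints, as did 3 of 6 tail-anchor insertion genes in input and 1 in footprints. The 2 and 3 of 10 are near the shares over all genes. Among 9 reporters of the unfolded protein response, input showed 7 rises and 1 fall, and footprints 5 rises. The chaperone Hspa5 (BiP) rose by 1.62 ± 0.09 in input (adjusted p = 3.4e-09) and Dnajb9 by 2.27 ± 0.29 (adjusted p = 2.6e-05), and Xbp1, a transcription factor of the response, fell by 0.32 ± 0.11 (adjusted p = 0.02). Their part in the rise of the members was not tested.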

How the data were processed

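Ribosome footprints (from RNase I digestion and the monosomal part of a sucrose gradient) and alkali-fragmented cytoplasmic input were sequenced, per the labels' protocols. The deposited table holds whole-number counts per gene and a normalised signal, the counts divided by 1 size factor per library named DESeq2 per the file headers. The submitters' processing notes name Bowtie 0.12.8, DESeq2 1.18.1 and mm10; counting, strand and multiple matches are not stated there. Column totals agree within 2 counts, so a step not described made the totals equal, and the original depth is unknown. The signal was not used.

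Counts of genes with at least 10 counts in 4 of 8 input and 4 of 8 footprint libraries were scaled by TMM and fitted with edgeR 4.0.16 in R 4.3.3 (robust glmQLFit, glmQLFTest). Input and footprints were each fitted with linear and quadratic minutes and a 16 h term (4 residual degrees of freedom). Density used the 16 libraries together and blocked on time point, since input was set aside from the lysate that gave the footprints (4 degrees of freedom; 7 for the mean level). The single library at 16 h is taken to vary as the rest do. Nothing in the labels says that time points are separate experiments, so p-values measure the spread between these libraries, which may be technical. Single-library intervals are exact binomial or Wilson intervals at 95% and cover counting error only; medians by time add 0.5 counts. Coding lengths and shared 29-mers come from GENCODE M21 (GRCm38), levels per kilobase from the longest coding transcript.

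The members and lists were chosen with earlier results of these data known. Named with full values are the 5 called members with the smallest adjusted p per comparison, each group's member with most footprints, the 3 highest and 3 lowest density levels, and all paralogues. Other members are given in brief, and genes outside the members were picked as examples after their values were seen. Alternatives were DESeq2 1.42.0 (test and size factors), total counts, no filter, linear or square root time, no block, non-robust fits (added after seeing the data) and each time point left out. The functions were tested on simulated counts.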

Additional observations from a re-analysis of the deposited data

How the results depend on the processing

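The rises at 16 h kept their direction under every alternative run: 26 to 37 members were called in input and 21 to 31 in footprints, and 26 of the 35 input calls and 20 of the 28 footprint calls were kept under each of them. Each 16 h value rests on 1 library per material that no alternative could leave out, so these counts of calls do not test it. The early results depended on the processing. For 0 to 90 min, the 12 input calls became 4 with total counts, 6 with DESeq2 and 5 with the square root of time, and 3 to 16 with single time points left out. The 6 footprint calls became 12 with total counts, 3 with the square root of time, and 2 to 9 with single time points left out. The density calls ranged from 0 to 1 with single time points left out, both over 0 to 90 min (1 without the 30 min pair) and at 16 h (0 without the 0, 15 or 60 min pair), and DESeq2 gave 0 at 16 h. Without the time-point block (libraries unpaired) the density counts were 0 and 1, as with it. Total counts reversed Sec62 (-0.18), Srp72 (-0.12) and Tmed5 (-0.17) in footprints over 0 to 90 min, and the mean density levels of Copa (-0.14), Sec31a (-0.049) and Tmed3 (-0.026), of which Copa passed. Total counts moved the median of all genes to -0.17 in early input, -0.32 in early footprints, -0.16 in late input and -0.10 in late footprints; the cause was not tested. The mean density level was called for 47 to 50 members under its own alternatives, which were not planned and did not include the DESeq2 test. Of 232 values that did not pass, 123 changed sign under some alternative, so no direction is read from them. Depth limits Sec61a2, Srp54c, Sec22a and Tmed8, with at most 177 counts in any library.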
